A study of Mus musculus with 148 samples.

Results

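The CpGs described here lie in the mouse lactase gene (*Lct*), from exon 7 through intron 2, at 128303752 to 128319058 of chromosome 1 (GRCm38, 15307 bp). *Lct* is read from the minus strand, so that intron 2 is the end of the region nearest to the start of the gene at 128328318. Every cytosine of a CpG on either strand was counted as 1 CpG, which gave 172 CpGs among the 1102 of the *Lct*–*Mcm6* locus and the 3762 of all regions targeted in the series. Of the 172, 83 had more than 30 reads in at least 50% of the samples and were analysed, against 668 in the locus. These 83 belonged to 53 CpG sites, of which 30 were covered on both strands, and 73 of the 83 were above 30 reads in every sample. Another 88 of the 172 were above 30 reads in no sample. Exon 7 held 30 of the analysed CpGs, intron 6 held 10, exon 5 held 2, intron 4 held 9, exon 4 held 3, intron 3 held 10, exon 3 held 3 and intron 2 held 16. Exon 6 and intron 5 contained no CpG in the files.

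Lactase is the enzyme of the enterocyte brush border that splits the milk sugar lactose into glucose and galactose. In most mammals its gene is active in the suckling young and is turned down after weaning, and in the adult small intestine its mRNA is most abundant in the middle part. Methylation of CpGs is usually high within gene bodies and low at active promoters and enhancers, and bisulfite sequencing reads methylation and hydroxymethylation alike, so that the measured quantity is called DNA modification. GATA and HNF1 factors are known regulators of *Lct* in enterocytes.

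The DNA came from villi enterocytes, prepared by chelation, of mice labelled C57BL/6MCrl (C57BL/6NCrl in the description of the breeding). Each intestine was cut into 9 segments, with segments 1 to 3 labelled duodenum, 4 to 6 jejunum and 7 to 9 ileum. The study's text divides them otherwise, with 1 and 2 as duodenum, 3 to 5 as jejunum and 6 to 9 as ileum. Untreated P60 mice gave 71 samples, 7 from segment 6 and 8 from each other segment. Untreated P6 pups gave 3 samples of segment 1, 3 of segment 3 and 4 of segment 7. P90 mice had drunk milk in place of water for 60 days from postnatal day 30, either with lactose and added sucrose (LAC+, 35 samples) or lactose-free (lac-, 32 samples), in 6 or 7 samples for each of segments 1, 3, 4, 7 and 8. The villus preparations were not pure enterocytes, and a shift in cell types and a change of modification within enterocytes cannot be told apart. The labels do not say which samples shared a mouse, so that p-values measure the spread between samples. The study describes its tests on fewer mice per P60 segment and fewer samples of each milk than there are here. It also mentions additional replicates beside its unique samples. The labels mark no sample as a repeat, so each was counted once. Whether repeats of a mouse are among them is not known, and if so the p-values count that mouse more than once. Over 590 CpGs of the locus, the 449 pairs of samples of the same group had chi-square values of 2.59 to 127 per CpG. Sampling noise alone would give about 1. Repeats captured separately could also exceed 1, so these values do not settle whether repeats are present.

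Between 15226624 and 101149164 reads were summed over the cytosines of the locus in a sample, and the median CpG of the region was read 795 to 11020 times. Cytosines outside CpGs within the region were modified at 0.373% to 0.393% in the P60 groups and at up to 0.56% in any sample, which stands as the background of the assay. This background was higher in the other ages, at 0.478% to 0.491% in the P6 groups and 0.445% to 0.490% in the P90 groups. DNA modification was taken as the percentage of modified reads. Intervals from counting are narrow at these depths and cover counting error only, and the spread between samples is given instead.

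Most of *Lct* from exon 7 to intron 2 was heavily modified, with a low stretch in intron 2. The median CpG had a P60 mean of 87.6%, against 90.3% for the 585 other analysed CpGs of the locus. In P60, 36 of the 83 CpGs were above 90%, 30 between 70% and 90%, 2 between 50% and 70% and 15 below 50%. The 15 were 9 in intron 2, 4 in intron 6 and 1 each in exon 7 and intron 4. The 1 in intron 4 and 1 of the 4 in intron 6 were read only in a synthetic probe arm, as described below. By feature, the median was 91.5% in exon 7, 74.7% in intron 6, 86.8% in exon 5, 95.1% in intron 4, 79.9% in exon 4, 87.1% in intron 3, 90.6% in exon 3 and 44.2% in intron 2. Within intron 2, 10 consecutive CpGs at 6 sites were below 70%, with a median of 15.9%, while the other 6 had a median of 91.7%. The limit of 70% was set with these values in view, so the low stretch is a description.

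The low stretch spans 413 bp from 128314519 to 128314931, 13387 to 13799 bp downstream of the *Lct* start. The next analysed CpG lies 1241 bp farther into the gene and, toward the start, 3874 bp away. Its sequence is shown because the largest differences of the region between P60 segments 9 and 3 fall in it. Both lines are from GRCm38, in the sense of *Lct* (minus strand), with the CpGs that passed the coverage rule in capitals. Reading from 5′ to 3′, the capitals of the part farther from the start are the sites 128314781, 128314755, 128314548 and 128314519, and those of the nearer part are 128314930 and 128314855.
Farther part, chr1:128314504-128314803: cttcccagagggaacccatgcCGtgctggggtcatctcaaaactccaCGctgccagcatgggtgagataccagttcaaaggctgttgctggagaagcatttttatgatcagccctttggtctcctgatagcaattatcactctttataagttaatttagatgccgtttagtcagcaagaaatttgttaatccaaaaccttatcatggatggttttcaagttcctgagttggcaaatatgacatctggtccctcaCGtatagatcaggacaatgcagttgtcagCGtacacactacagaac
Nearer part, chr1:128314841-128314946: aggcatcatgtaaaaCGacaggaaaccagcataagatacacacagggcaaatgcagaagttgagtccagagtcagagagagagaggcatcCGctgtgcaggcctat
The farther part held GATAA, a core bound by GATA factors, at 2 positions over both strands, and GTTAAT, part of the HNF1 site, at 2. Of all consecutive windows of 300 bp along *Lct*, *Mcm6* and the bases between, 31.3% held GATAA and 8.43% held GTTAAT. These matches are letters in the reference and not measured binding. The nearer part, of 106 bases, held neither.

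**Figure D1:**
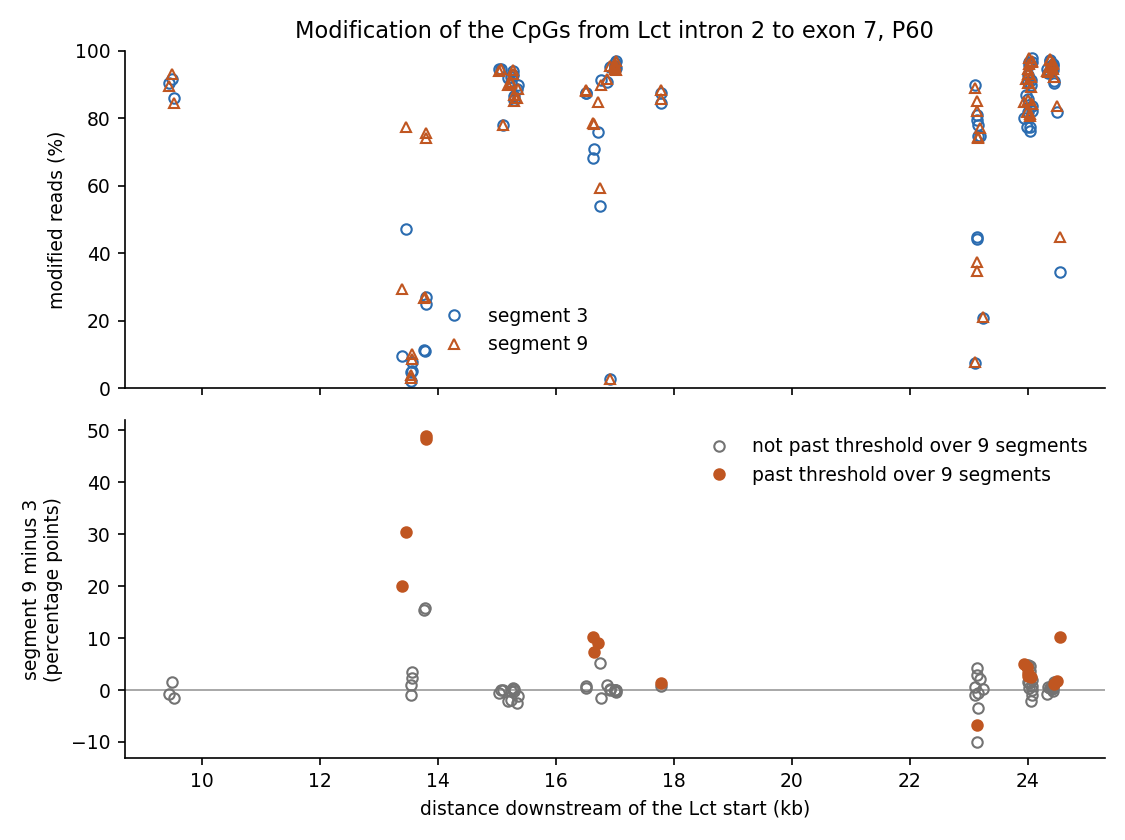
Upper panel, mean modified reads (%) of each analysed CpG in P60 segment 3 (circles) and segment 9 (triangles) against its distance downstream of the *Lct* start (kb); lower panel, segment 9 minus segment 3 (percentage points), filled where the CpG passed the threshold over the 9 segments. The low stretch stands between 13387 and 13799 bp, with differences of up to 48.97 points.

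Along the P60 intestine, modification in the low stretch fell slightly to segment 3 and then rose to the end of the ileum. Over the 9 segments, 17 of the 83 CpGs differed after Bonferroni correction (quasi-binomial F test over all cytosines of the locus, threshold 0.01), 16 of them higher in segment 9 than in segment 3 and 1 lower, against 17.2% of all CpGs of the locus in either direction, 15.6% higher and 1.53% lower. At an unadjusted p under 0.05 there were 47, against 48.5%, and limma called 10. The shares in the region were thus near those of the locus. The 17 were 8 of 30 in exon 7, 1 of 10 in intron 6, 1 of 2 in exon 5, 1 of 3 in exon 4, 2 of 10 in intron 3 and 4 of 16 in intron 2, and none of the 9 in intron 4 or the 3 in exon 3. The median difference between segments 9 and 3 was 0.49 percentage points in the region and 0.47 over all CpGs tested. The differences ranged from -10.1 to 48.97 points.

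The 4 intron 2 CpGs that passed are the outer ones of the low stretch. CpGs are named by the position of their cytosine and its strand. At 128314519+, the segment 3 samples lay between 17.96% and 35.1% (median 24.8%) and the segment 9 samples between 60.6% and 79.8% (median 74.5%). The groups did not overlap. From segment 1 to segment 9 its means were 32.8%, 26.2%, 25.1%, 31%, 37.2%, 47.2%, 54.4%, 62.97% and 74.0%, with an SD of 5.2 to 9.5 points over 7 or 8 samples (adjusted p = 3.37e-19). The step from 25.1% to 26.2% between segments 3 and 2 was smaller than the SD of either, while each step from segment 5 onward was of about the size of the SD. The other strand of this site, 128314520-, went from 27.2% ± 4.8 in segment 3 to 75.5% ± 5.4 in segment 9 (SD, adjusted p = 1.2e-19). Both strands thus moved by about the same amount, 48.97 and 48.4 points.

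Nearer to the start, 128314856- was between 37.5% and 52.5% in segment 3 (median 47.9%) and between 71.6% and 84.7% in segment 9 (median 77.4%), again without overlap. Its means by segment were 57.9%, 49.7%, 47.03%, 47.5%, 54.5%, 56.7%, 68.7%, 72.2% and 77.4% (adjusted p = 2.8e-14). Its median depth was 193.5 to 332.5 reads in the 9 segments. The last CpG, 128314931-, was the least modified of the 4, with 6.68% to 11.2% in segment 3 and 24.04% to 33.8% in segment 9. Its means stayed between 8.65% and 11.5% up to segment 5, were 14.7% in segment 6 and 22.2% in segment 7, and reached 29.4% in segment 9 (adjusted p = 1.58e-20). All 4 thus had their lowest mean in segment 2 or 3 and their highest mean in segment 9. Within sequencing lanes 5, 6 and 7, the difference between segments 9 and 3 was 53.1, 43.8 and 45.98 points at 128314519+, 28.1, 30.1 and 32.2 at 128314856-, and 21.0, 19.4 and 18.7 at 128314931-.

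The 6 inner CpGs of the stretch did not pass the threshold. At 128314548+, 29 bp from 128314519+, segment 3 lay between 7.45% and 19.4% and segment 9 between 18.6% and 36.3%, with means of 11.1% and 26.9% (adjusted p = 0.0285 over the 9 segments). At 128314755+, the means were 11.7% in segment 1, 7.84% in segment 3 and 10.2% in segment 9. At 128314782-, the lowest CpG in the copied sequence of the region, they were 5.21%, 2.19% and 3.12%. In segment 9, 128314755+ and 128314782- thus stayed low while 3 of the 4 outer CpGs exceeded 70%, and the inner 128314548+ was close to the outer 128314931-. As means over CpGs per sample, given as a description, the outer 4 went from 27.2% ± 2.1 to 64.1% ± 3.6 between segments 3 and 9, and the inner 6 from 7.08% ± 2.8 to 13.3% ± 2.9 (SD, 8 samples each). The outer set was defined as the CpGs that passed in these samples and the inner set as the rest. The contrast between the 2 means thus follows in part from that choice.

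**Figure D2:**
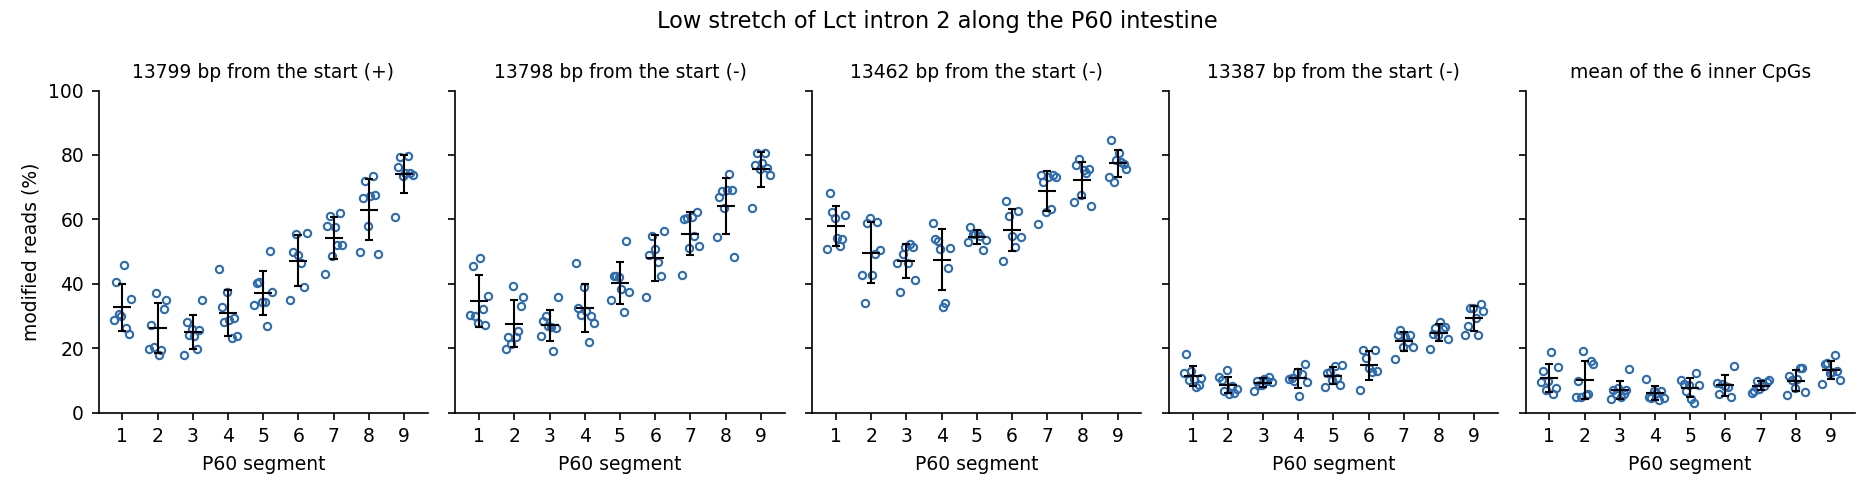
Modified reads (%) of each P60 sample (circles) by segment at the 4 outer CpGs of the low stretch of *Lct* intron 2, named by distance from the *Lct* start and strand, and as the mean of its 6 inner CpGs; bars are the mean and SD. The outer CpGs reach 74.0%, 75.5%, 77.4% and 29.4% in segment 9, while the inner mean is 13.3%. The outer CpGs are those of the stretch that passed the threshold in these samples.

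Samples of the same group also varied together at neighbouring CpGs. After the group means were removed, the P60 samples had r = 0.95 between the strands of 128314519, r = 0.82 between 128314519+ and 128314548+, and r = 0.86 between 128314755+ and 128314781+. The coefficient was 0.42 between 128314519+ and 128314856-, and 0.39 between 128314856- and 128314931-. These are descriptions over 71 samples, and CpGs copied by the same probe share their reads.

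In exon 4 and at the end of intron 3 that adjoins it, 3 CpGs rose from segment 3 to segment 9 by 7.4 to 10.3 points. At 128311610+ in exon 4 the samples lay between 71.9% and 78.1% in segment 3 and between 83.6% and 86.8% in segment 9, without overlap (means 75.8% and 84.9%, adjusted p = 8.83e-11 over the 9 segments). At 128311681+ and 128311682-, the strands of 1 site in intron 3, the means were 70.8% and 78.2%, and 68.3% and 78.6%. The minus strand of this site lies in no located probe, so which probe gave its reads is not known here. Segment 1 had means of 79.1% in exon 4 and of 73.0% and 70.8% at the intron 3 site, between those of segments 3 and 9. Within lanes 5, 6 and 7, exon 4 differed by 9.45, 8.30 and 8.55 points.

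In exon 7, 8 CpGs passed, with smaller steps and in part another order of the segments. At 128303817- the means were 77.9% in segment 1, 81.9% in segment 3 and 83.6% in segment 9. At 128303874- they were 88.2%, 90.9% and 92.1%. Segment 1 had the lowest mean of all 9 segments at both, whereas the 4 outer CpGs of the intron 2 stretch had theirs in segment 2 or 3. The CpG with the widest step, 128303765-, is an island of low modification in exon 7, with 32.0% to 38.8% in segment 3 and 41.2% to 49.1% in segment 9, without overlap (means 34.4% and 44.7%). At 128304316+, 128304318+, 128304263+, 128304336+ and 128304374+, segment 9 was 2.5 to 5.0 points above segment 3. In exon 5, 128310535- rose from 83.1% in segment 1 to 85.9% in segment 9.

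Intron 6 held the CpG that fell. At 128305181+ the means were 53.4% in segment 1, 44.2% in segment 3 and 37.4% in segment 9 (adjusted p = 2.74e-05). The segment 9 samples lay between 34.02% and 42.5% and the segment 3 samples between 37.1% and 48.8%, so the groups overlapped. The other strand, 128305182-, fell from 44.9% to 34.8% between segments 3 and 9 but did not pass the correction.

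Pairs of segments gave fewer calls. Between segments 9 and 3, 7 of 83 differed, all higher in segment 9, against 6.92% of the CpGs of the locus, and 27 had an unadjusted p under 0.05, against 33.5%. Limma called 4. The 7 were the 4 outer CpGs of the intron 2 stretch and the 3 CpGs at exon 4 and intron 3. Between segments 7 and 3, 3 differed, all higher in segment 7, against 3.91% in either direction, 3.31% higher and 0.602% lower, and 24 had an unadjusted p under 0.05, against 29.8%. With lane as a covariate 1 of the 3 remained, and limma called 3. The 3 were 128314931- (12.7 points higher in segment 7), 128314520- (28.4) and 128314519+ (29.3). Between segments 3 and 1 the F test called 0 of 83, against 0.15%, with 24 at an unadjusted p under 0.05, against 22.7%, and 0 by limma. Its lowest p was at 128303817-, 3.96 points higher in segment 3. Over the 73 CpGs covered in every sample, the mean was 73.2% ± 0.53 in segment 3 and 76.5% ± 0.49 in segment 9. Without the low stretch it was 82.4% and 83.3%.

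The strands of a site had nearly the same level except where a probe arm was read. Among the 28 sites with no strand read only in a probe arm, the P60 means differed by a median of 1.58 points, and 27 were within 5 points. The other, 128304336 in exon 7, had 78.7% on the plus and 89.6% on the minus strand, where the median was 31 reads. At 2 sites, 128305210 in intron 6 and 128311409 in intron 4, the plus strand had 88.8% and 95.1%, and the minus strand 6.81% and 2.74%. Those minus-strand cytosines were covered only by the ligation arm of a located probe, which is a synthetic sequence. The arms are shown with the base at the CpG in capitals, a T in each, as an unmodified cytosine would read.
Arm over 128305211-: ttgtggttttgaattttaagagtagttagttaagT
Arm over 128311410-: ggaagatggttagattgggagtttgT
In 128311410- the T is base 26 of 26 and in 128305211- base 35 of 35. The 2.74% at 128311410-, the lowest P60 mean of the region, thus belongs to a base of the probe. These 2 CpGs are kept in the counts and means because the coverage rule includes them, and neither was called in any comparison.

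**Figure D3:**
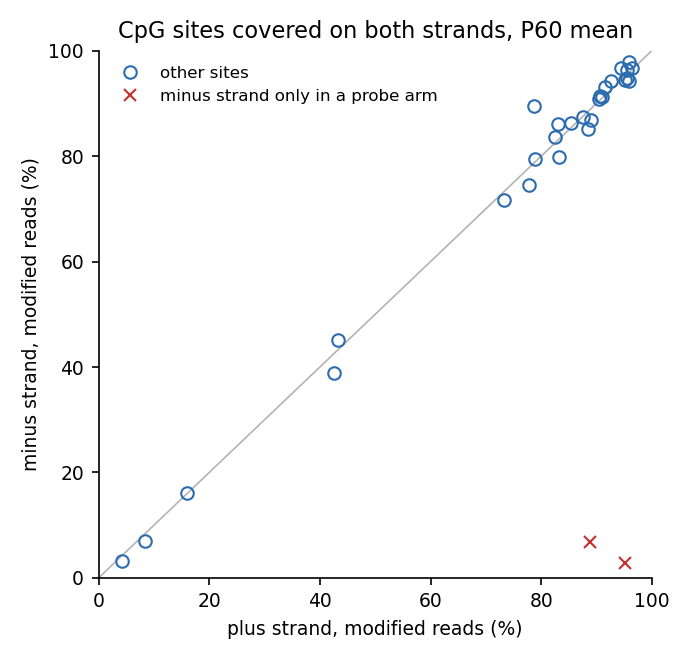
P60 mean modified reads (%) on the minus strand against the plus strand for the 30 CpG sites covered on both strands; crosses are the 2 sites whose minus strand is read only in a probe arm, circles the other 28, and the line marks equal values. The crosses stand at 6.81% and 2.74% on the minus strand.

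In P6 pups no CpG of the region passed the threshold between segments 1, 3 and 7. The F test called 0 of 75, against 0.0% of the locus, with 9 at an unadjusted p under 0.05, against 9.39%, and 0 by limma. The lowest p was at 128304316+ in exon 7, where the samples had 81.75%, 79.5% and 78.2% in segment 1, 77.4%, 75.4% and 75.1% in segment 3, and 82.7%, 82.9%, 82.7% and 85.95% in segment 7. At 128314519+, the pups had means of 34.8% ± 11 in segment 1, 32.3% ± 15 in segment 3 and 41.5% ± 8.0 in segment 7. At 128314931- they had 16.1%, 11.9% and 13.6%. With 3 or 4 samples a group, the two-sided exact permutation test between segments 7 and 3, which doubles the smaller tail, cannot give a p below 0.057.

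Between ages, the called CpGs were more modified in adults, and they lay outside the low stretch. All P6 samples were sequenced on lane 8 and no P60 sample was, so age and lane cannot be told apart. In segment 7, 3 of 75 CpGs differed, each higher in P60, against 0.93% of the locus in either direction, 0.775% higher and 0.155% lower, and 39 had an unadjusted p under 0.05, against 42.8%. Limma also called 3. At 128313278+ in intron 2, the 4 pups had 76.75%, 69.3%, 72.7% and 75.2%, and the adults 93.9% to 94.7% (median 94.3%, adjusted p = 5.1e-06). At 128313244+, in the same probe, the pups had 82.7%, 76.7%, 80.1% and 82.1% and the adults 93.6% to 95.3% (adjusted p = 9e-05). No pup reached the lowest adult at either. At 128305171- in intron 6, the pups had 49.03%, 40.75%, 48.7% and 47.9%, and the adults 77.6% to 88.5% (means 46.6% and 82.9%, adjusted p = 0.00052). The difference of 36.3 points was the largest of the region in segment 7.

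In segment 3, 1 of 75 CpGs differed, against 0.623%, and 27 had an unadjusted p under 0.05, against 31.3%. Limma called 0. It was 128310535- in exon 5, where the pups had 74.1%, 72.9% and 73.6% and the adults 83.5% to 85.9% (median 84.3%, adjusted p = 1.36e-05). This CpG was not called in segments 1 and 7, which does not show that its difference by age was limited to segment 3. In segment 1 the F test called 0 of 75, against 0.624%, with 23 at an unadjusted p under 0.05, against 35.4%, and 0 by limma. The lowest p there was again at 128313278+, with 91.4%, 86.9% and 88.0% in pups and 93.7% to 95.4% in adults (adjusted p = 0.093). The sequences around these age-associated CpGs are given in the sense of *Lct*, from GRCm38, with the analysed CpGs in capitals.
Intron 2 beside exon 3, chr1:128313204-128313298: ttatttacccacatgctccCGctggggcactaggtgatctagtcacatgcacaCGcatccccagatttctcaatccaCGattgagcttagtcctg
Exon 5, chr1:128310517-128310595: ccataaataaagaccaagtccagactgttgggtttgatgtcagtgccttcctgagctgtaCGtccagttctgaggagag
Intron 6, chr1:128305106-128305216: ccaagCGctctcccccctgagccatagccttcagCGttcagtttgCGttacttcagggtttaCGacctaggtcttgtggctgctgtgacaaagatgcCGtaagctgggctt

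The difference between pups and adults at the intron 2 probe was larger toward the ileum in the means. At 128313278+ the P6 means were 88.8% ± 2.4, 82.7% ± 3.6 and 73.5% ± 3.2 in segments 1, 3 and 7, while those of P60 were 94.5%, 94.5% and 94.3%. At 128313244+ the P6 means were 89.7%, 86.2% and 80.4%, and at 128313220+, the remaining CpG of the probe, 70.3%, 59.6% and 53.7% against 78.7%, 78.1% and 75.4% in P60. The pups' 3 segments did not overlap at 128313278+. Tested as an interaction of age and segment, the F test called 0 of 75 CpGs, against 0.0%, with 15 at an unadjusted p under 0.05, against 16.7%, and 0 by limma. The lowest was 128313278+ (adjusted p = 0.031), above the threshold of 0.01. In P90 the same CpG had means between 93.1% and 94.4% in all 10 groups.

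The low stretch itself gave no call by age. At 128314519+ in segment 7, P60 had 54.4% ± 6.6 and P6 had 41.5% ± 8.0. The inner CpGs went the other way in the means, with 7.20% and 18.3% at 128314755+ and 3.31% and 13.9% at 128314781+ in P60 and P6 of segment 7. The pups were widely spread there, from 8.99% to 29.1% at 128314755+ in segment 7. At 128314856- they had 70.9%, 30.1% and 24.8% in segment 1 and 60.1%, 27.4% and 19.6% in segment 3, where 1 sample of each stood far above the others. At 128305119- in intron 6, a further CpG that did not pass, the means were 43.2%, 36.8% and 45.99% in P6 and 70.5%, 74.8% and 77.7% in P60.

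**Figure D4:**
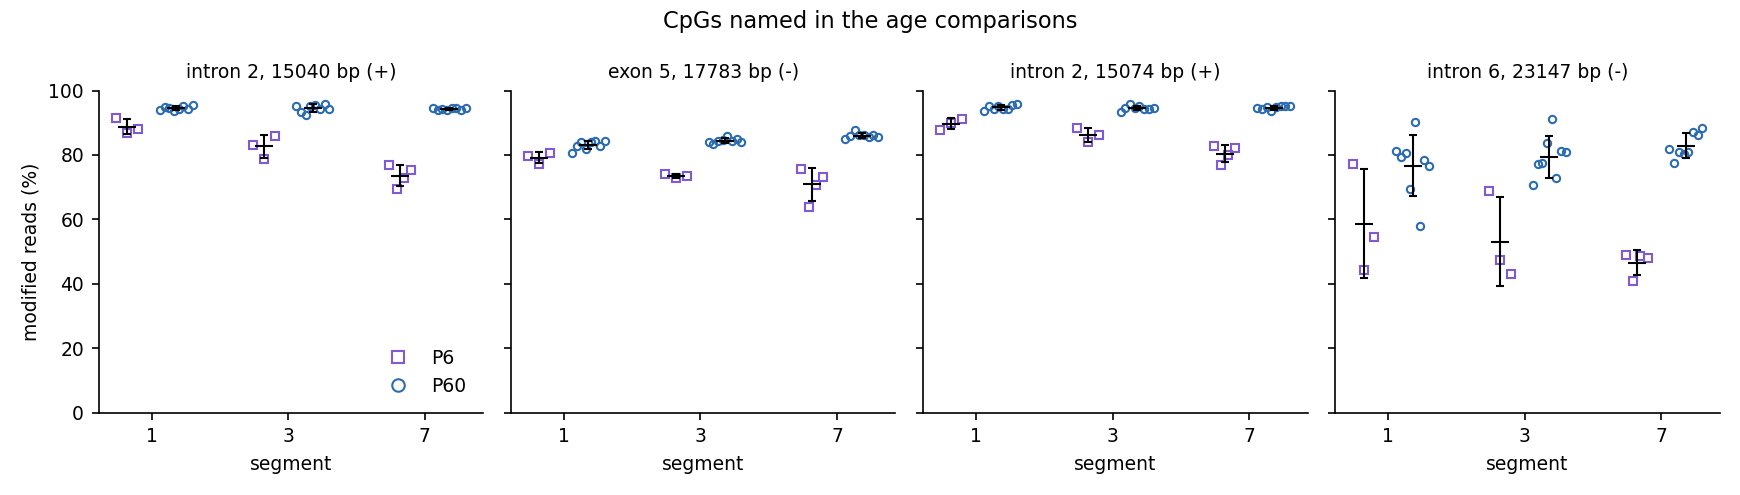
Modified reads (%) of each P6 (squares) and P60 (circles) sample in segments 1, 3 and 7 at the 4 CpGs named in the age comparisons, labelled by feature, distance from the *Lct* start and strand; bars are the mean and SD. At the leftmost CpG, 128313278+, the P6 means are 88.8%, 82.7% and 73.5% and the P60 means 94.5%, 94.5% and 94.3%.

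Milk with and without lactose gave no call in the region. CpGs above 90% were left out here. The F test called 0 of 56 CpGs in segment 1, 0 of 48 in segment 3, 0 of 50 in segment 4, 0 of 44 in segment 7 and 0 of 49 in segment 8, against 0.0% of the locus each time. At an unadjusted p under 0.05 there were 3, 0, 0, 7 and 15, against 6.76%, 5.32%, 5.93%, 14.2% and 20.5% of the locus, and limma called 0 in each. The interaction of diet and segment gave 0 of 46, against 0.0%, with 2 at an unadjusted p under 0.05, against 5.95%, 0 by limma, and the lowest at 128313030+ in intron 3.

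The lowest p of segment 8 was at 128303765- in exon 7, with 40.2% to 60.4% in LAC+ (median 52.2%) and 36.6% to 47.4% in lac- (median 43.8%). The means differed by 9.80 points with an SE of 3.01, and the groups overlapped (exact permutation test, two-sided, p = 0.00874, not adjusted). Diet and kind of file cannot be told apart in this difference. Files named as merged had a mean of 54.95% in LAC+ (6 samples) and 47.31% in lac- (1 sample). The files not merged had 40.21% in LAC+ (1 sample) and 42.33% in lac- (6 samples). In segment 7 it was 128311610+ in exon 4, 83.4% ± 2.2 in LAC+ and 80.3% ± 1.3 in lac-. In segments 1, 3 and 4 it was 128318831+ (2.72 points lower in LAC+), 128310535- (2.29 lower) and 128314931- (1.47 higher). In the low stretch, 128314931- had 18.8% ± 1.9 in LAC+ and 25.1% ± 6.3 in lac- of segment 8, and 128314519+ had 61.5% ± 11 and 59.5% ± 7.5. Neither difference passed the correction.

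The P90 files were of different kinds, and this moved with diet. The file names mark 15 LAC+ samples of lane 1 and 14 of lane 3 as merged, and 3 and 9 of lac-, while 5 LAC+ samples of lane 1, 1 of lane 2 and 20 lac- samples were not. Within the P90 groups, 4 of 75 CpGs differed between merged and other files, 3 higher and 1 lower in the merged ones, against 3.27% of the locus in either direction, 2.34% higher and 0.935% lower. At an unadjusted p under 0.05 there were 37, against 39.4%. In the merged files, 128314781+ was 10.98 points higher, 128314755+ 14.4 higher and 128303765- 11.3 higher, and 128313049+ was 1.82 lower. Without LAC+ segment 3 replicate 7, which stands apart, 10 differed, the 4 among them. The mean of the 6 inner CpGs was 24.4% in the 4 merged and 7.82% in the 2 other lac- samples of segment 1, and 20.9% in the 5 merged and 4.48% in the 2 other LAC+ samples of segment 7. The part of the kind of file in the diet values was not tested over all segments. Among the merged files of lane 3, which hold both diets, 128314519+ had 50.1% in LAC+ and 45.4% in lac- of segment 1 (exact permutation test, p = 0.248), and 56.3% and 52.6% in segment 4 (p = 0.402).

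Another pair of P90 samples stood apart in segment 3. LAC+ replicate 7, the only sample of lane 2, had 87.2% at 128314519+ and 45.5% over the inner CpGs, while the other 6 lay between 12.9% and 49.4% and between 2.85% and 25%. The lac- replicate 4 had 51.2% at 128314519+ and 20.1% at 128314931-, where the other 5 had 6.89% to 10.99%. Without them, the means at 128314519+ were 31.9% ± 15 in LAC+ and 24.1% ± 12 in lac-, against 39.8% ± 25 and 28.7% ± 16 with them.

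**Figure D5:**
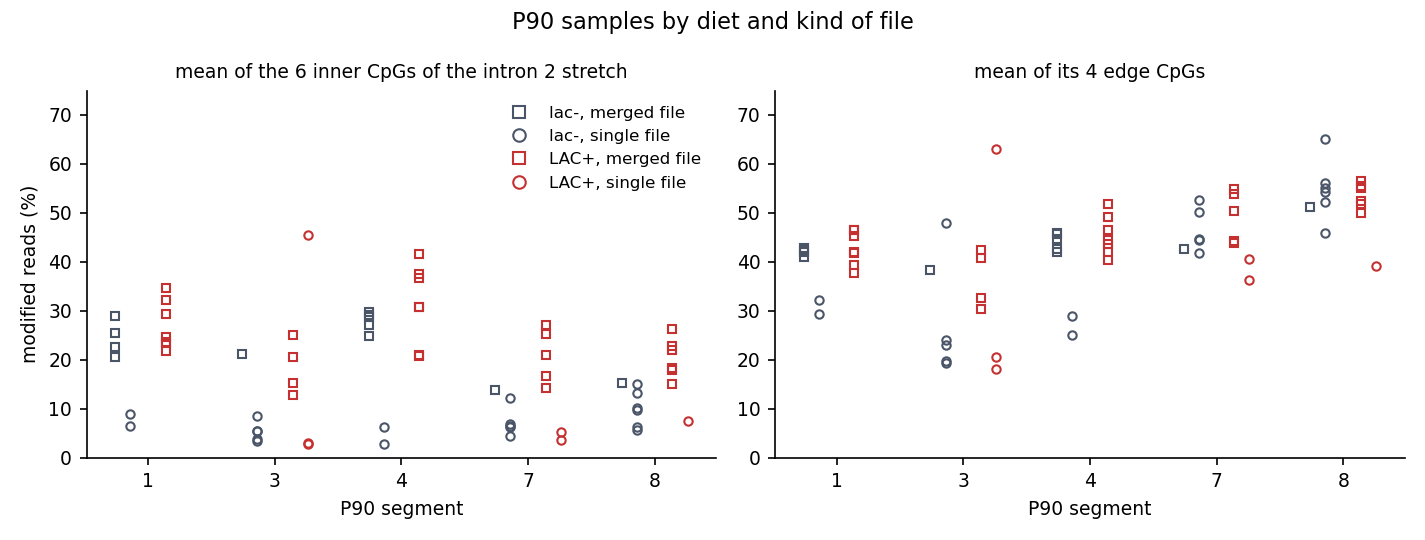
Modified reads (%) of each P90 sample, as the mean of the 6 inner CpGs (left) and the 4 outer CpGs (right) of the low stretch of *Lct* intron 2, by segment, diet (colour) and kind of file (squares merged, circles not merged). On the left the merged samples of a group lie above the others, except for the circle at 45.5% in LAC+ segment 3.

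The segments of the P90 mice differed at 21 of 75 CpGs, 19 of them higher in segment 8 than in segment 3 and 2 lower, against 24.1% of the locus in either direction, 22.1% higher and 2.02% lower. At an unadjusted p under 0.05 there were 59, against 71.0%, and limma called 11. Of the 21, 12 were in exon 7, 4 in intron 2, 2 each in exon 5 and intron 3, and 1 in intron 6. The lowest p were at 128303874- and 128303817- in exon 7, 128314931- in intron 2, 128311809+ in intron 3, and 128304316+ and 128304318+ in exon 7. At 128314931- the LAC+ means were 10.6%, 8.79%, 11.4%, 16.5% and 18.8% in segments 1, 3, 4, 7 and 8, and the lac- means 11.5%, 10.9%, 9.93%, 20.7% and 25.1%. In both diets segments 7 and 8 thus had the highest means. At 128305181+, which fell along the P60 intestine, segment 8 was 7.35 points below segment 3. Segments 1 and 4 of LAC+ held only merged files of lane 3, and those of lac- only files of lanes 3 and 5. Segments 3, 7 and 8 were on lanes 1 and 2 in LAC+. In lac- they were on lanes 1, 6 and 7, but for 1 sample of segment 3 on lane 3. Segment and lane are thus mixed in this comparison. They stay mixed within merged files, which were of lane 3 in segments 1 and 4 and of lane 1 in segments 3, 7 and 8. Over segments 3, 7 and 8 alone, 3 CpGs remained (128304316+, 128314856- and 128314931-), within merged files 9 and within LAC+ samples of lane 1 there was 1. Over segments 1 and 4 alone the F test called 0. Without both samples that stood apart, 22 differed, the 21 among them. In intron 2 these 22 held the inner 128314756- and 128314782- but not the outer 128314520-. The 4 intron 2 CpGs among the 21 were thus not the 4 that passed in P60.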

How the data were processed

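The authors mapped bisulfite reads of padlock-captured DNA from 148 samples to GRCm38 (mm10) with Bismark, after Trimmomatic 0.32 per the submitters' processing notes. They deposited, for each sample, the counts of modified and unmodified reads at each cytosine and strand, and these counts were used as deposited, without normalization. Reads were not corrected for duplicates here, so that intervals from counts cover counting error only. Sample groups came from the labels, and the lane and the word merged from the file names. Exons were taken from GENCODE vM21 on GRCm38.p6, and the 304 probes of the locus were located on it from the study's probe list.

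A cytosine was tested where at least 3 samples of each group had more than 30 reads. Each cytosine's counts entered a quasi-binomial fit (logit link, Pearson dispersion, not below 1), and groups compared by an F test, with Bonferroni correction at 0.01 over all tested CpGs and other cytosines of the locus, or over the CpGs up to 90% modified for diet. Single CpGs were also compared by exact permutation tests over samples, and limma 3.58.1 on log2 odds (pseudocount 0.5) was an alternative. Both strands of a CpG were tested separately and share a site. The models were tested on simulated data. The CpGs, the low stretch and the lists were chosen with earlier results of these data known. Named CpGs are those past the threshold in the comparison of the 9 P60 segments, in each other comparison those past it (at most 6) or else the 1 with the lowest p, the lowest p of each exon and intron, and the lowest and highest P60 means. CpGs outside this rule (128305119-, 128305182-, 128313220+ and the inner CpGs of the stretch) were named after their values were seen. R 4.3.3 and Python 3.11.15 were used, the latter with pandas 2.3.3, SciPy 1.17.1, Matplotlib 3.10.9 and NumPy 2.4.6.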

Additional observations from a re-analysis of the deposited data

Results flagged for a closer look

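A sample was marked where its gap to the next sample exceeded Dixon's 95% limit for its group of 4 to 10, which marks about 1 in 20 groups by chance; 7 of 106 were marked. Of these, 3 were in P60 segments 3 and 4. In segment 3, replicate 8 had 20.2% over the low stretch of intron 2, against 12.1% to 15.9% in the others, and 13.5% over its inner CpGs, against 4.35% to 7.72%. In segment 4, replicate 1 had 10.6% over the inner CpGs, against 4.09% to 6.79%. In segment 9, replicate 1 had 55.3% over the 4 outer CpGs, against 63.7% to 66.3%. All segment 9 samples remained above those of segment 3 at these 4 CpGs. Among P90 samples, lac- segment 3 replicate 5, the only merged file of its group, had 21.3% over the inner CpGs, against 3.53% to 8.54%. LAC+ segment 8 replicate 1, the only file of its group that was not merged, had 39.2% over the outer CpGs, against 49.9% to 56.6%. At 128305171- in intron 6, P6 segment 7 replicate 2 had 40.75%, against 47.9% to 49.03%. The part of lane or kind of file in these values was not tested.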

How the results depend on the processing

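Main counts of called CpGs stood at 17 over the P60 segments, 7 between segments 9 and 3, 3 between 7 and 3, 1 and 3 by age in segments 3 and 7, 21 over the P90 segments and 4 by kind of file. With Benjamini-Hochberg correction at 0.05 they were 32, 13 and 5 in P60, 4, 12 and 14 by age in segments 1, 3 and 7, 3 for the interaction of age and segment, and 49 over the P90 segments. With limma they were 10 over the P60 segments, 4 between segments 9 and 3, 0 by age in segment 3 and 11 over the P90 segments. With strands summed they were 11, 3 and 1 in P60 and 13 in P90. These are counts of sites, while the main counts take each strand separately, so the numbers are not directly comparable. With lane as a covariate 1 remained between segments 7 and 3. Over segments 3, 7 and 8 of P90 there were 3, over segments 1 and 4 there were 0, in LAC+ samples of lane 1 there was 1 and in merged files 9. Without LAC+ segment 3 replicate 7, 10 differed by kind of file.

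The replicate number as a block left 17 over the P60 segments, 3 between segments 9 and 3, 1 between 7 and 3 and 0 by age in segments 3 and 7; a block by the number in the file name left 4 and 1 between the same pairs of P60 segments. Numbers were taken to pair samples only where every same-numbered pair had a correlation of deviations from the group means over 0.1, which held at no age: 57 of 280 pairs in P60 (mean 0.014), 48 of 131 in P90 (0.032) and 6 of 9 in P6. In P6 the mean was 0.274, against -0.103 for other pairs, and 6 of 9 samples were closest to one of their own number, and whether pups gave several samples is not in the labels. The rule asks the same of every pair, so its failure does not show that the samples came from different mice. By age, the block joins mice of different ages. Named CpGs kept their direction under the block, and 10 of them lost an exact p under 0.05, which designs of 3 or 4 pairs cannot reach. Leaving out 1 P6 sample at a time gave 1 to 2 calls in segment 3, 3 to 4 in segment 7 and 0 to 2 for the interaction; 2 calls came without segment 3 replicate 1 and, for the interaction, without segment 7 replicate 1. Pooling reads over CpGs in place of their mean changed the difference between segments 9 and 3 from 3.25 to 2.38 points over the region and from 18.5 to 22.9 in the low stretch, and that between ages in segment 7 from 3.68 to 2.58. Among the alternatives run, 160 values of counts and means were classed as kept and 35 as moved. A count was classed as kept if it was equal to the main one, 0 included, or within a set ratio of it. No difference of means changed sign, and counts have no sign to change. The causes were not tested. Depth limits most the 8 minus-strand CpGs of exon 7, with medians of 40.5 to 41 reads over all samples.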

Other observations

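The cytosine with the highest modification outside CpGs in the region was 128313123 on the minus strand, in a CTC context of exon 3, with a mean of 6.38% over samples and a range of 1.10% to 17.03%, while the mean of the 1104 such cytosines was below 0.6% in every sample. The next, 128313121, had 3.45%. Both were among the cytosines tested outside the diet comparisons, but their results were not examined here.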
